A study of Mus musculus with 4 samples.

Results

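Cycling cells of mouse adipose tissue were picked out by transcripts of dividing cells. A cell barcode counted as cycling when its UMIs (unique molecular identifiers, each standing for 1 captured transcript) of Mki67, Top2a, Birc5, Ube2c and Pclaf added up to at least 3. Barcodes had first to hold at least 200 genes and at most 25% mitochondrially encoded UMIs. The rule found 90 cycling barcodes among 4136 kept barcodes, 23 of 971 in WT SC, 21 of 1969 in KO SC, 40 of 675 in WT IP and 6 of 521 in KO IP.

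The study had run single-cell RNA sequencing on 4 libraries in 4 groups, with 1 library per group, from subcutaneous (SC) and visceral intraperitoneal (IP) adipose tissue. WT was Tie2e-cre; TERT+/+; mTmG and KO was Tie2e-cre; TERTfl/fl; mTmG, so both genotypes carried the recombinase and the reporter and differed in the floxed Tert alleles. All mice were male, 7 months old, and had received a high-fat diet for 5 months. Tie2e-cre places the recombinase under regulatory sequence of Tie2, an endothelial receptor gene, and mTmG is a reporter whose tdTomato gives way to GFP once the recombinase has cut it. The labels do not state how many mice stand behind a library and name both cells and nuclei as loaded material. With 1 library per group the spread between mice is unknown, no test was made, and all intervals are exact 95% intervals that cover counting error only.

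A dividing cell first loads the MCM helicase onto DNA, copies its genome in S phase with polymerases fed by nucleotide enzymes, and then builds a spindle and condenses its chromosomes in G2 and M phase. E2F factors drive the genes of the first step, and the MuvB complex with B-MYB and FOXM1 drives those of the second. Outside division these genes are held low, which makes their transcripts a mark of the few cells in cycle. In adipose tissue, cells known to divide under a high-fat diet include macrophages, lymphocytes and stromal progenitors.

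The promoters of these genes carry short motifs, and some of the motifs go with 1 of the 2 steps. The promoters are shown here because the cycling cells were chosen and described by the genes they control. Sequences are RefSeq promoters of GRCm38.p6, from 250 bases before to 50 bases after a gene's start, written 5′ to 3′ on the gene's strand. Capitals mark every match, on either strand, to CCAAT (bound by NF-Y), TTTGAA (the CHR core), TTCCCGC (an E2F site) or TTGGCGC (an E2F or CDE-like site). Letters shared by overlapping matches are in 1 run of capitals.
Mki67, chr7:135716330-135716629, minus strand: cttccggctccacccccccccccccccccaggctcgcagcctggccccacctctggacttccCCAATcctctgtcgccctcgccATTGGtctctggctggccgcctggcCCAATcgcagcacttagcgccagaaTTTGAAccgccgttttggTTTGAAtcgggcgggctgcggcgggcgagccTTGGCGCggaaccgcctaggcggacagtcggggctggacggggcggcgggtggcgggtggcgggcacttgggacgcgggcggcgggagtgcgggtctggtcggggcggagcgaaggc
Top2a, chr11:99024140-99024439, minus strand: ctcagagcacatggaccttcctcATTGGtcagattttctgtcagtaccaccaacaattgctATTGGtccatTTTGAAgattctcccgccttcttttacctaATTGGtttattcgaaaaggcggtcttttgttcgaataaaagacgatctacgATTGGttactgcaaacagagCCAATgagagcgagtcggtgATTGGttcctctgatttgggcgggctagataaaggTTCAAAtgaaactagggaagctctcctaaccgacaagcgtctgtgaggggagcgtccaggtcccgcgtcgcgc
Ube2c, chr2:164769679-164769978, plus strand: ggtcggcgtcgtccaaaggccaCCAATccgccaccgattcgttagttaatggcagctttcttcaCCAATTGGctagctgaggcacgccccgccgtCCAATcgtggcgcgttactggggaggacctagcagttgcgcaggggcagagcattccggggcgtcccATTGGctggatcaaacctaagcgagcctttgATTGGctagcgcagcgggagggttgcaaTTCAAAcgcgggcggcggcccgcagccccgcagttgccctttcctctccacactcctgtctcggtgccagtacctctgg
Pclaf, chr9:65890073-65890372, plus strand: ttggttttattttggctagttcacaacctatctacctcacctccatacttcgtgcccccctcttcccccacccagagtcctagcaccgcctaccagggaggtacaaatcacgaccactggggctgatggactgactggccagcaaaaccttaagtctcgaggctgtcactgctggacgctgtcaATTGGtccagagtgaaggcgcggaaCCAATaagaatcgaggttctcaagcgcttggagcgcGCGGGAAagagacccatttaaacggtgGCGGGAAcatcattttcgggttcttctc
Ccnb2, chr9:70421505-70421804, minus strand: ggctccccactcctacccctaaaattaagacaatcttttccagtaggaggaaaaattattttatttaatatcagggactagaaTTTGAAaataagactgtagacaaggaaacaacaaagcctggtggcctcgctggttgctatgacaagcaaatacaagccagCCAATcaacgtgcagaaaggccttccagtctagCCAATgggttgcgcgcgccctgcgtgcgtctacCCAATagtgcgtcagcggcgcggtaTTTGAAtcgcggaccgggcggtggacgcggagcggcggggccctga
Mcm5, chr8:75109259-75109558, plus strand: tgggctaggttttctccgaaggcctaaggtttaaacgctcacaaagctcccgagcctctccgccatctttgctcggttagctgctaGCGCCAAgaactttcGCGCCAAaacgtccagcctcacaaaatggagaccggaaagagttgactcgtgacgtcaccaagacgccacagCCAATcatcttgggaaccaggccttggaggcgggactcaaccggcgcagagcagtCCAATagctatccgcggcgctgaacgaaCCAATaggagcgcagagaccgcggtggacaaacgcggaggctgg

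Mki67, Top2a, Ube2c and Ccnb2 each held CCAAT together with TTTGAA. Top2a and Ube2c had 6 CCAAT matches each, and Mki67 and Ccnb2 had 3 each. Pclaf had 2 CCAAT and 2 TTCCCGC matches, and Mcm5 had 3 CCAAT and 2 TTGGCGC matches. The Birc5 window held none of the 4 motifs. Among all 32851 promoters of the table, 37.4% held CCAAT, 17.9% TTTGAA, 4.60% TTCCCGC and 2.45% TTGGCGC. Of the 28 promoters found for 34 genes of condensin, kinetochore and spindle, 23 held TTTGAA and 3 held TTCCCGC. Of the 22 found for 26 genes of replication licensing and the fork, 3 held TTTGAA and 12 held TTCCCGC. These are letter matches, not measured sites.

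The rule genes are protein-coding genes of GRCm38, and Top2a and Birc5 share chromosome 11. Mki67 (ENSMUSG00000031004, chr7:135689784-135716361, minus strand) encodes the coat protein of mitotic chromosomes known as Ki-67. Top2a (ENSMUSG00000020914, chr11:98992943-99024189, minus strand) encodes the topoisomerase that untangles sister DNA. Birc5 (ENSMUSG00000017716, chr11:117849251-117855743, plus strand) encodes survivin of the chromosomal passenger complex. Ube2c (ENSMUSG00000001403, chr2:164769898-164778822, plus strand) encodes a ubiquitin-conjugating enzyme that works with the anaphase-promoting complex. Pclaf (ENSMUSG00000040204, chr9:65890237-65903266, plus strand) encodes a PCNA-binding protein of the replication fork.

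The data went against the label for 13 of the 90 barcodes. These had over 50% of their UMIs from haemoglobin genes, 5, 2, 6 and 0 in the order WT SC, KO SC, WT IP and KO IP, and none of them held a UMI of Mki67, Top2a, Birc5 or Pclaf. They qualified through Ube2c alone, with 3 to 19 UMIs. All 774 haemoglobin-rich barcodes of the 4 libraries together, kept or not, had 472 Ube2c UMIs and 7 UMIs of the other 4 genes. Ube2c was found in 21.6% of them. The 4 genes that separate dividing cells from other cells were therefore at or near 0 there, and these barcodes are called haemoglobin-rich and not cycling cells below.

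**Figure D1:**
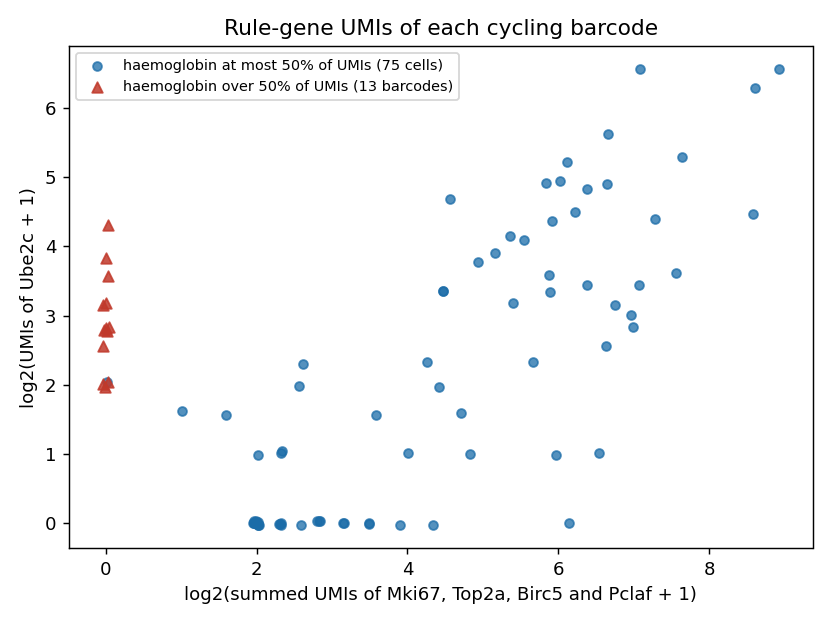
Each point is a barcode that met the rule, with log2 of the summed UMIs of Mki67, Top2a, Birc5 and Pclaf plus 1 on the x axis and log2 of Ube2c UMIs plus 1 on the y axis (a small jitter separates equal points; the 2 KO SC barcodes shared with WT IP are not drawn). The 13 haemoglobin-rich barcodes (triangles) stand at 0 on the x axis, and 35 of the 75 other cells (circles) held UMIs of all 5 genes.

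A further 2 barcodes had the pattern of copies. KO SC and WT IP had 93 barcodes in common, whereas every other pair of libraries had 0 or 1. In 92 of the 93 the KO SC barcode held 1.50% to 1.99% of the UMIs of the WT IP barcode (median 1.71%), and a median of 99.4% of its UMIs fell in genes also seen in the WT IP barcode. For the remaining one the share was 20.1%, with 90.6% of UMIs in genes of the pair, and it was T-like in KO SC and EC-like in WT IP, so it is not shown to be a copy. Among the WT IP barcodes concerned 9 met the rule, and 2 of these still met it in KO SC, with rule sums of 4 and 6 against 130 and 579 in WT IP. All 93 shared KO SC barcodes passed the filter on kept barcodes and 77 of them were ASC-like. All 93 are left out where shared barcodes are said to be left out, and the one not shown to be a copy held 0 rule-gene UMIs.

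Leaving out haemoglobin-rich barcodes and the shared KO SC barcodes gave 75 cycling cells, 18 of 955 in WT SC, 17 of 1872 in KO SC, 34 of 662 in WT IP and 6 of 521 in KO IP. This set was chosen after seeing the data, and counts are given for the 90 barcodes of the rule and for the 75 cells where both bear on a result.

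Cycling cells were deeper than the rest. Median UMIs were 23912 in the cycling barcodes of WT SC against 7352 in the other kept barcodes, 16467 against 6706 in KO SC, 20811 against 12204 in WT IP and 26171 against 10173 in KO IP. A deeper cell reaches 3 UMIs more easily, so shares are also given after drawing 5000 UMIs from every cell. Single cells carried much of the summed counts. The deepest cycling cell held 14.5%, 18.7%, 16.6% and 45.7% of all UMIs of the cycling barcodes, in the order WT SC, KO SC, WT IP and KO IP, and the KO IP one also held 70.2% of the rule-gene UMIs.

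The rule genes themselves are a description of the choice. Summed over cycling barcodes, Mki67 had 173, 194, 311 and 167 UMIs in the order WT SC, KO SC, WT IP and KO IP. Top2a had 356, 414, 561 and 210 UMIs in the same order. Birc5 had 203, 145, 289 and 88 UMIs. In all other kept barcodes Mki67 had 19, 10, 19 and 6 UMIs and Top2a 38, 88, 36 and 24. Birc5 had 5, 4, 13 and 21 UMIs there, Ube2c 17, 2, 14 and 7 and Pclaf 6, 12, 6 and 6. The rule summed these genes, so it is set by the choice that most of their UMIs lay in the chosen cells. Ube2c had 239, 206, 359 and 108 UMIs, of which 28, 25, 44 and 0 lay in haemoglobin-rich barcodes. Pclaf had 282, 301, 346 and 109 UMIs.

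The strength of the program varied widely from cell to cell. Rule sums of the 75 cells ran from 3 to 232 in WT SC (median 29.5), from 3 to 400 in KO SC (median 10), from 3 to 579 in WT IP (median 25) and from 3 to 479 in KO IP (median 42). A sum of 10 or more was reached by 45 cells and a sum of 3 to 9 by 30. All 5 rule genes were seen in 35 cells and only 1 gene in 15 cells. For 10 of these 15 the gene was Top2a, and 7 of the 10 were in KO SC, with 3 to 10 UMIs each. Those 7 are a large part of the 17 cycling cells of KO SC.

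Cells at the edge of the rule looked much like cells outside it. Just inside, the 14 cells with a rule sum of 3 had 2543 CPM (UMIs scaled to one common total) over the genes of S and G2/M phase, none of which is a rule gene. Just outside, the 54 cells with a sum of 2 had 2139 CPM. Cells with a sum of 0 had 1900 CPM. Values were 2814 CPM at sums of 4 to 9, 8780 CPM at 10 to 49 and 15396 CPM at 50 or more, each summed over the cells of the range.

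Free RNA was judged in neutrophil-like cells, which do not divide. Of 40 such cells, 2 held a rule-gene UMI (5.00%) and 0 held 3. A count of 0 is taken to allow 3 counts and not the exact limit, here a share of up to 7.50%. Median depth of the neutrophil-like cells was 4476 UMIs, below that of the cycling cells. Deeper mesothelial-like cells (median 50941 UMIs) held a rule-gene UMI in 10 of 34 (29.4%) and 0 held 3, and among 830 B-like cells 26 held 1 (3.13%) and 3 held at least 3. A single UMI was therefore not read as a sign of cycling.

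The share of cycling barcodes was lower in KO than in WT in both depots and higher in IP than in SC in WT. SC gave 2.37% for WT (1.51 to 3.53) and 1.07% for KO (0.661 to 1.63). In IP it was 5.93% in WT (4.27 to 7.98) and 1.15% in KO (0.424 to 2.49). The log2 ratio of KO to WT was -1.15 in SC (-2.08 to -0.23) and -2.36 in IP (-3.89 to -1.12). For IP against SC it was 1.32 in WT (0.55 to 2.13) and 0.11 in KO (-1.49 to 1.47), an interval that holds 0. With a rule sum of at least 2 the KO to WT ratio in IP was -1.21 (-2.07 to -0.42), and with at least 5 that in SC was -1.02 (-2.15 to 0.11), an interval that again holds 0. Among the 75 cells the KO to WT ratios were -1.05 (-2.10 to -0.01) in SC and -2.16 (-3.70 to -0.89) in IP.

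At 5000 UMIs per cell the shares fell but kept their order between genotypes. WT SC had 13 cycling barcodes of 785 (1.66%), KO SC 12 of 1435 (0.836%), WT IP 21 of 569 (3.69%) and KO IP 3 of 409 (0.733%), with 186, 534, 106 and 112 shallower barcodes left out. The KO to WT ratio was then -0.99 in SC (-2.25 to 0.26), an interval that holds 0, and -2.33 in IP (-4.72 to -0.59).

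Each kept cell was given the class whose markers it showed in the highest share, with at least 2 markers. Of the 90 cycling barcodes, 35 were T-like (38.9%, 28.8 to 49.7), 18 carried haemoglobin markers, 9 were macrophage-like, 8 ASC-like (adipose stromal cells), 7 NK-like, 3 B-like, 3 DC-like (dendritic cells), 1 plasma-like, 1 mast-like and 5 had no class. When haemoglobin was not used as a marker, all 75 cells took a class and each showed at least 3 markers of it. There were then 36 T-like, 11 macrophage-like, 9 NK-like, 8 ASC-like, 6 DC-like, 3 B-like, 1 plasma-like and 1 mast-like cell. No cycling cell was EC-like, although 28 kept cells were. Taken to allow 3 counts, a count of 0 among 28 cells allows a share of up to 10.7%, a limit set by the number of EC-like cells. After drawing 5000 UMIs per cell 1 of 14 EC-like cells of WT IP met the rule. It was 0 of 14 in a second draw without haemoglobin-rich barcodes and without haemoglobin as a marker. Drawing UMIs cannot raise a rule sum, and 0 of 17 EC-like cells of WT IP met the rule at full depth. The cell of the first draw therefore had another class or none at full depth. Why its class changed was not tested.

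Cells were classed by these markers, so their counts are a description. Cycling T-like cells of WT SC showed a median of 8 of 8 T markers, against 7 in other T-like cells, and those of the other 3 libraries did the same, at a greater depth than the other T-like cells (median 28875 against 8916 UMIs in WT SC). Of the 75 cells, 15 also showed at least 3 markers of another class, and the doublet caller Scrublet marked 1 of the 75 and 23 of the 4136 kept barcodes (0.556%). Whether cells with markers of more than 1 class were doublets was not tested.

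The libraries differed in which classes cycled. In SC, 13 of 18 cycling cells of WT and 13 of 17 of KO were T-like. In WT IP only 5 of 34 were T-like, beside 10 macrophage-like, 8 NK-like, 6 ASC-like, 4 DC-like and 1 mast-like cell. KO IP had 5 T-like cells and 1 ASC-like cell.

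**Figure D2:**
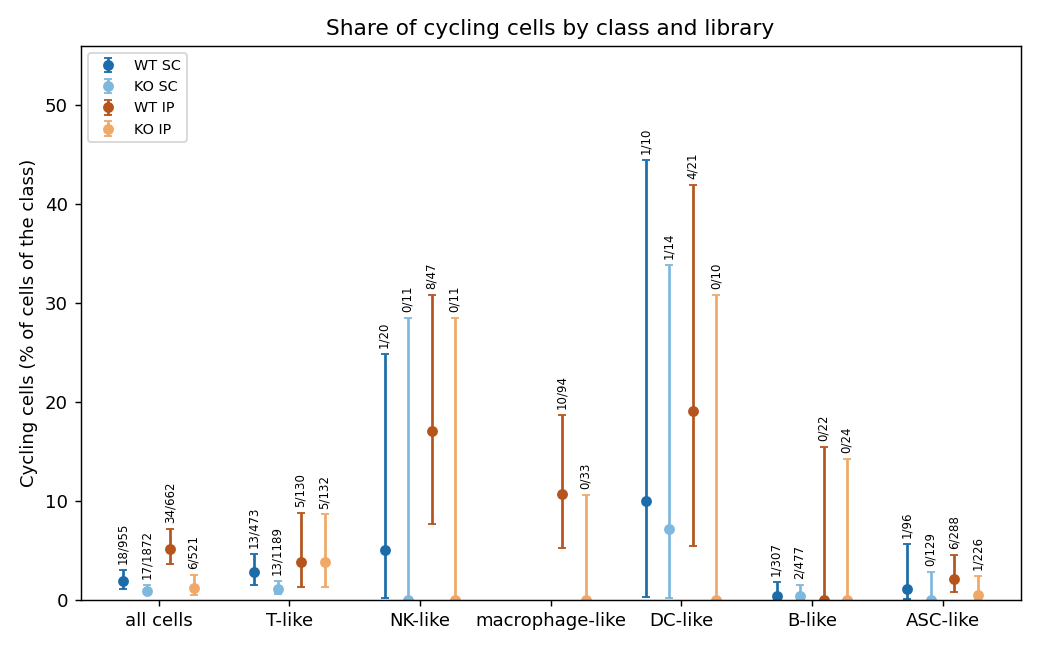
Cycling cells as a percentage of the cells of a class (y axis) for each class (x axis) and library (colours), without haemoglobin-rich barcodes and the shared KO SC barcodes; points are shares, bars exact 95% binomial intervals, and the fractions give cycling cells over cells (classes with under 10 cells in a library are not drawn). T-like cells of IP lie at the same height in WT (5/130) and KO (5/132), while the macrophage-like and NK-like shares of WT IP (10/94 and 8/47) stand above 0/33 and 0/11 in KO IP with overlapping intervals.

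Among T-like cells of SC, 2.75% cycled in WT (13 of 473, 1.47 to 4.65) and 1.09% in KO (13 of 1189, 0.583 to 1.86), a log2 ratio of -1.33 (-2.56 to -0.10). After thinning to 5000 UMIs the ratio was -1.16 (-2.71 to 0.41), which holds 0. In IP, 3.85% of T-like cells cycled in WT (5 of 130) and 3.79% in KO (5 of 132), a log2 ratio of -0.02 (-2.14 to 2.10). That interval spans more than 4-fold either way and does not show that the genotypes were alike.

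Outside the T-like cells the share in KO IP was below that in WT IP. Of cells in all other classes 29 of 532 cycled in WT IP (5.45%, 3.68 to 7.74) and 1 of 389 in KO IP (0.257%, 0.00651 to 1.42), a log2 ratio of -4.41 (-9.76 to -1.81). At 5000 UMIs these were 17 of 445 and 0 of 293. This split was made after the values were seen. The other classes also differed in make-up between the libraries. WT IP held 4 mesothelial-like and 3 neutrophil-like cells and KO IP 30 and 22, and none of them cycled. WT IP held 94 macrophage-like and 47 NK-like cells and KO IP 33 and 11. The part of this in the ratio was not tested. For single classes the counts were too small: macrophage-like cells cycled in 10 of 94 in WT IP (10.6%) and 0 of 33 in KO IP (up to 10.6% by the exact interval), NK-like cells in 8 of 47 (17.0%) and 0 of 11, and ASC-like cells in 6 of 288 (2.08%) and 1 of 226 (0.442%). At the rule sum of 2 that lies just outside, KO IP had 12 further cells and WT IP 14.

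Cycling T-like cells of SC carried more transcripts of several, but not all, genes of regulatory and activated T cells than the other T-like cells of their library. Foxp3, the factor of regulatory T cells, was at 60.9 CPM against 14.7 in WT SC (log2 ratio 2.05, 1.35 to 2.71) and at 39.4 against 14.5 in KO SC (1.44, 0.53 to 2.23). It was seen in 5 of 13 cycling cells of each library, against 19 of 460 and 43 of 1176 other cells. Tnfrsf4, which encodes the costimulatory receptor OX40, was at 500.5 CPM against 71.7 in WT SC (2.80, 2.55 to 3.05) and at 484 against 55.4 in KO SC (3.13, 2.87 to 3.38). Ctla4, an inhibitory receptor, was at 809.5 CPM against 322 and at 794 against 337. Ikzf2, which encodes Helios, was at 496 CPM against 323 in WT SC and 726 against 259 in KO SC.

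Il2ra (CD25) had log2 ratios of 0.06 (-0.60 to 0.66) in WT SC and -0.28 (-1.10 to 0.43) in KO SC. Pdcd1 (PD-1) was at 0.55 (-0.52 to 1.48) and -0.43 (-1.65 to 0.57), and all 4 intervals hold 0.

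Genes of resting and recirculating T cells were lower in the same cells. Lef1, a factor of naive T cells, was at 133 CPM against 1040 in WT SC (-2.97, -3.36 to -2.61) and 149 against 999.5 in KO SC (-2.74, -3.16 to -2.36). Klf2, which maintains quiescence and exit from tissue, was at 224 CPM against 793 in WT SC and 183 against 558 in KO SC. Tcf7 was at 139 against 311 and at 110 against 242. Cd8b1, a chain of the CD8 receptor, was at 111 CPM against 245 in WT SC and 11.3 against 179 in KO SC.

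The direction of these differences was the same at equal depth. With 5000 UMIs per cell, Foxp3 was found in 5 of 13 cycling and 12 of 411 other T-like cells of WT SC, and in 2 of 12 and 30 of 1053 of KO SC. Tnfrsf4 was found in 5 of 13 and 46 of 411 cells of WT SC and in 8 of 12 and 103 of 1053 of KO SC. Lef1 was found in 3 of 13 cycling cells against 328 of 411 others in WT SC, and in 5 of 12 against 831 of 1053 in KO SC. Cd4 went the opposite way in WT SC, with 0 of 13 against 95 of 411, though 8 of 13 unthinned cells held it.

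**Figure D3:**
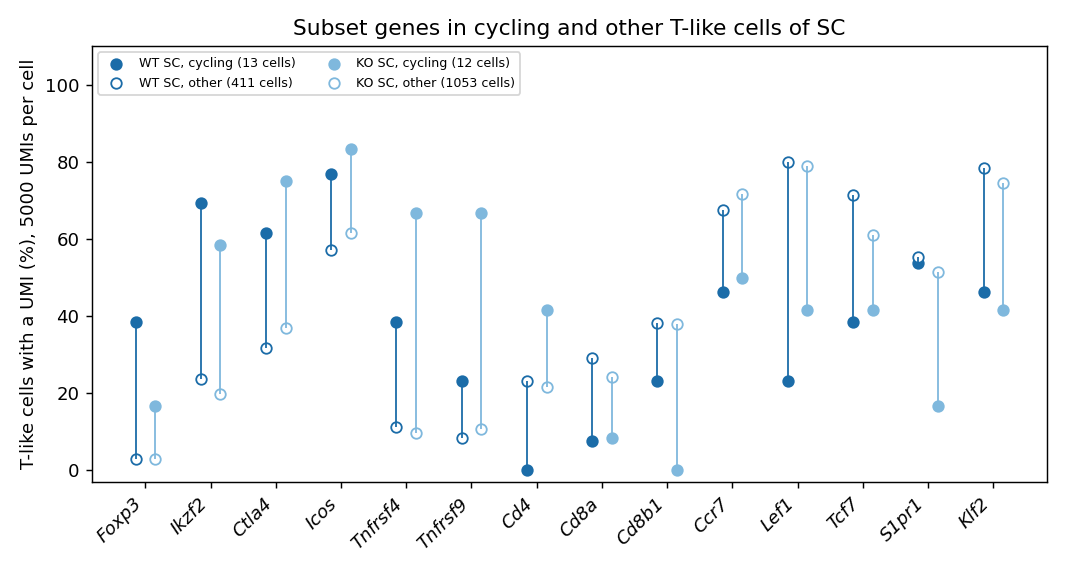
Percentage of T-like cells with at least 1 UMI of a gene (y axis) for subset genes (x axis) in SC, after drawing 5000 UMIs from each cell; filled points are cycling cells, open points the other T-like cells of the same library, and lines join the pair. Filled points lie above open ones for Foxp3, Ikzf2, Ctla4, Icos, Tnfrsf4 and Tnfrsf9 in both libraries, and below them for Cd8a, Cd8b1, Ccr7, Lef1, Tcf7, S1pr1 and Klf2.

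The cycling T-like cells of IP differed from those of SC in some genes and resembled them in others. Log2 ratios to the other T-like cells, WT first and KO second, were -2.28 and -0.95 for Lef1. They were -2.99 and -0.77 for Tcf7 and -3.28 and -0.69 (-1.50 to 0.04) for Klf2, the last interval holding 0. Lef1, Tcf7 and Klf2 thus went down as in SC, while Cd8b1 went up, at 0.55 and 1.50. Ctla4 and Ikzf2 were at 1.06 and 0.51 in KO IP but at -0.42 (-0.95 to 0.08) and -2.65 for WT. Foxp3 had 0 UMIs in all 10 cycling T-like cells of IP, 5 in each genotype. In WT IP, 3 of 5 held Cd8a or Cd8b1 without Cd4 and 1 held Cd4 alone, and Gzmb, a cytotoxic granule enzyme, was at 71.7 CPM against 69.3 in other T-like cells (0.05, -0.81 to 0.83). KO IP had 3 of 5 with Cd4 alone and 1 with CD8 genes. Tnfrsf4 was at 0 CPM in WT IP against 38.6 in the others and at 71.7 against 137 in KO IP, below the other T-like cells in both libraries. Trdc, the constant chain of gamma delta T cells, was found in 1 cycling T-like cell in each of WT SC, KO SC and KO IP and in none of WT IP. With 5 cells a library these are values of single cells.

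The balance of S and G2/M transcripts was read from 42 S genes and 48 G2/M genes. Of the 90 cycling barcodes 75 held more G2/M than S UMIs (83.3%, 74.0 to 90.4), and of the 75 cells 63 did (84.0%). The share was 16 of 18 in WT SC, 11 of 17 in KO SC, 30 of 34 in WT IP and 6 of 6 in KO IP. Because the lists differ in size and level, other cells are the baseline: among them 68.0%, 71.5%, 73.7% and 76.3% held more G2/M UMIs. Per S UMI, cycling cells had 2.36, 2.10, 2.52 and 2.56 G2/M UMIs, against 1.51, 1.55, 1.58 and 1.71 in the other cells. The rule genes act mostly in G2 and M phase, so a higher ratio than in unselected cells is set by the choice of cells and nothing is read from it. By the share of cells KO SC stood below its other cells, at 64.7% against 71.5%. In 8 of the 75 cells the 2 sums lay within 10% of the total of each other.

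**Figure D4:**
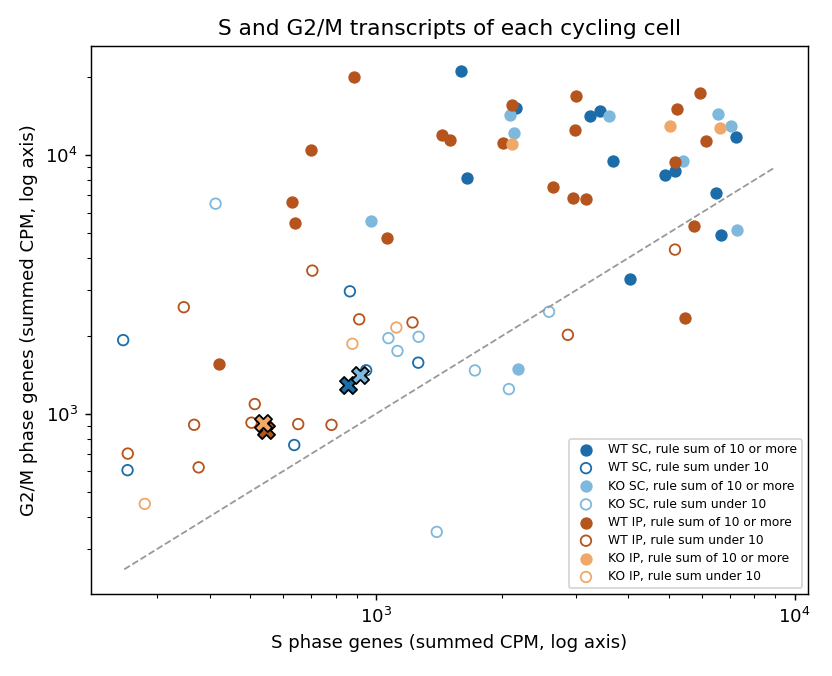
Summed CPM of S genes (x axis) and G2/M genes (y axis) for each of the 75 cycling cells, both on log axes; colours are libraries, filled points have a rule sum of 10 or more, open points a sum under 10, crosses are the summed other cells of each library, and the dashed line marks equal values. Most filled points stand far above the crosses, and most open points lie around the crosses. Some filled points lie near a cross too, such as a KO SC cell with a rule sum of 10 (1488 CPM of G2/M genes against 1416).

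Levels spread over more than 10-fold within a library. Median S transcripts per cell were 2705 CPM for WT SC (249 to 7237), 2085 for KO SC (413 to 7267), 1327 for WT IP (255 to 6140) and 1615 for KO IP (279.9 to 6629). For G2/M genes the medians were 7653 CPM for WT SC (605 to 21204), 5142 for KO SC (349 to 14478), 5392 for WT IP (620.1 to 20069) and 6609 for KO IP (448 to 12970). The ranges of all libraries overlap.

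Differences from other cells were next set against cells of the same class. For each gene the UMIs in cycling barcodes were compared with the UMIs expected if they had the profile of the other kept barcodes of their class and library, as log2 of the ratio after adding 0.5 UMI to both. A gene was called when the ratio was at least 2-fold the same way in all 4 libraries. Of 9858 genes compared, 357 were higher (3.62%) and 130 lower (1.32%). With the 75 cells these were 396 of 9672 (4.09%) and 113 (1.17%), and 349 of the higher and 83 of the lower genes were called in both. The rule chose the cells by genes of this program, so the counts below describe the cells and are no test. With 5000 UMIs drawn from every cell 107 genes were higher and 23 lower, and with each cell given equal weight 141 and 33. Leaving out KO SC, WT IP or KO IP from the call gave 220, 364 and 300 lower genes.

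Replication genes were higher together. Of the 26 genes of licensing and fork 24 were called higher and 0 lower, with a median log2 ratio of 2.55, 2.84, 2.30 and 2.54 in the order WT SC, KO SC, WT IP and KO IP, beside medians of -0.16, -0.07, -0.08 and -0.07 over all genes. Mcm5, a subunit of the helicase, had 56, 65, 78 and 16 UMIs in WT SC, KO SC, WT IP and KO IP, where 5.94, 2.67, 6.19 and 1.21 were expected. Mcm3 had 86, 93, 119 and 27 UMIs where 9.97, 6.5, 16.8 and 4.29 were expected. Every subunit from Mcm2 to Mcm7 was called. The sliding clamp gene Pcna had 170 UMIs against 76.0 expected in WT SC and 66 against 21.4 in KO IP. Cdt1, the licensing factor, was not called, with log2 ratios of 0.12, -0.13, 0.85 and 0.71.

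Nucleotide enzymes followed, with 8 of 11 called higher and 0 lower. Rrm2, the ribonucleotide reductase subunit of S phase, had 103, 85, 89 and 30 UMIs where 1.81, 1.8, 3.42 and 0.755 were expected. Tyms, thymidylate synthase, had log2 ratios of 4.57, 5.43, 3.67 and 3.03. Cad, Ctps and Impdh2 were not called.

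Cyclins and mitotic kinases were higher as well. Of 19 genes 15 were called higher and 0 lower, with medians of 3.96, 4.39, 4.86 and 3.61. Ccna2, the cyclin of S and G2 phase, had 92, 67, 106 and 28 UMIs, and under 1 was expected in each library. Cdk1, the kinase that starts mitosis, had 116, 85, 121 and 46 UMIs where 0.945, 0.132, 2.51 and 0.597 were expected. Aurkb, partner of survivin in the chromosomal passenger complex, had 61, 47, 52 and 24 UMIs with under 1 expected. Ccne2, Ccnf, Cdk2 and Cdc25b missed the call in at least 1 library.

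Condensin, kinetochore and spindle genes moved almost as 1 group. Of 34 genes 32 were called higher and 0 lower, with medians of 4.74, 4.65, 4.51 and 4.03. Cenpf, a kinetochore protein, had 80, 66, 177 and 61 UMIs with under 1 expected in each. Kif11, the motor that separates spindle poles, had 93, 67, 93 and 52 UMIs where 1.35, 0.706, 2.31 and 1.06 were expected. Smc4, a condensin subunit, was not called. In its case 260 UMIs were seen and 212 expected in WT SC, 214 and 141 in KO SC, 323 and 86.9 in WT IP and 110 and 33.2 in KO IP.

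The D cyclins answer growth signals before a cell commits to division. Of 5 genes with their kinases 0 were called with the 90 barcodes and 1, Cdk4, was called higher with the 75 cells. Ccnd3 was below expectation in all libraries, with 114 UMIs where 238 were expected in WT SC, 98 where 240.0 were in KO SC, 167 where 245 were in WT IP and 38 where 134 were in KO IP. Ccnd2 had log2 ratios of -0.68, -0.54, -0.21 and -0.92. Ccnd1 went different ways, at -0.36, 3.52, 0.95 and -0.92.

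Among the regulators, 8 of 11 E2F and MuvB genes were called higher and 0 lower. E2f8, a repressor made late in S phase, had 9, 19, 11 and 4 UMIs, and Foxm1, an activator of mitotic genes, had 11, 6, 18 and 5. Mybl2 (B-MYB) had 8, 26, 14 and 5 UMIs with under 1 expected in each. The lower counts of these factors make their ratios less certain than those of their targets.

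Brakes of the cycle split. Of 17 genes compared 1 was called higher and 3 lower. The gene called higher was Cdkn2a, the locus of p16 and ARF, with 6, 9, 13 and 12 UMIs where 0.773, 0.582, 0.918 and 0.864 were expected. The genes called lower were Klf2, Btg1 and Txnip, all known from resting cells. Txnip had 50 UMIs where 192 were expected in WT SC, 15 where 99.5 were in KO SC, 90 where 223 were in WT IP and 32 where 79.5 were in KO IP. Cdkn1b, which encodes p27, had log2 ratios of -1.36, -1.09, -0.68 and -0.39. Of 14 p53 targets compared 0 were called either way. Cdkn1a, which encodes p21, had log2 ratios of -1.08, -0.54, -0.38 and -0.24.

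Genes that guard replication were higher in part. Of 18 repair and checkpoint genes compared 12 were called higher and 0 lower. Clspn, which relays fork stress to CHK1, had 35, 38, 61 and 35 UMIs where 1.63, 1.33, 2.09 and 0.402 were expected. Brca1, a factor of repair by recombination, had 27, 35, 47 and 18 UMIs. The sensor kinases Atm and Atr were not called, with log2 ratios between -1.49 and 0.97.

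Tert, the catalytic subunit of telomerase and the gene floxed in KO (ENSMUSG00000021611, chr13:73626911-73649843, plus strand), had 0 UMIs in the 90 cycling barcodes. Over their 2477483 UMIs a count of 0, taken to allow 3 counts, allows up to 1.21 CPM. Other kept barcodes had 22 Tert UMIs in 41121557, or 0.535 CPM, so a level like theirs could not have been seen in the cycling cells. The deletion could thus not be checked here. Of 12 telomerase and shelterin genes compared 2 were called higher, Dkc1 and Nhp2, which encode proteins that hold the telomerase RNA and also small nucleolar RNAs. The shelterin genes Terf1, Terf2, Tinf2 and Acd had log2 ratios between -0.53 and 0.71.

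Chromatin and tubulin genes were higher too. Of 15 genes 12 were called higher and 0 lower, with medians of 2.27, 2.45, 2.10 and 2.18. Stmn1, which destabilises microtubules, had 476, 401, 739 and 156 UMIs where 31.4, 32.8, 32.9 and 6.91 were expected. Hmgb2 had 1573, 1441, 1853 and 663 UMIs where 188, 174, 233 and 119 were expected. These ratios are smaller than those of the cyclins.

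Growth and energy genes differed less. None of 14 ribosome biogenesis genes was called, although their medians were 0.47, 1.12, 0.88 and 0.28. Of 14 glycolysis genes 1 was called, Tpi1, with medians of 0.61, 1.35, 0.45 and 0.70. Of 30 nuclear OXPHOS genes 1 was called, Sdhd, with medians of 0.84, 1.21, 0.43 and 0.72. The 13 mitochondrially encoded genes were not called, and their medians were -0.26, -0.42, -0.01 and 0.19. Among 17 immediate early and heat shock genes, which mark handling of tissue, 0 were called higher and 2 lower, Hspa1a and Hspa1b. Hspa1a had 91, 10, 45 and 5 UMIs where 377, 37.5, 356 and 30.6 were expected.

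**Figure D5:**
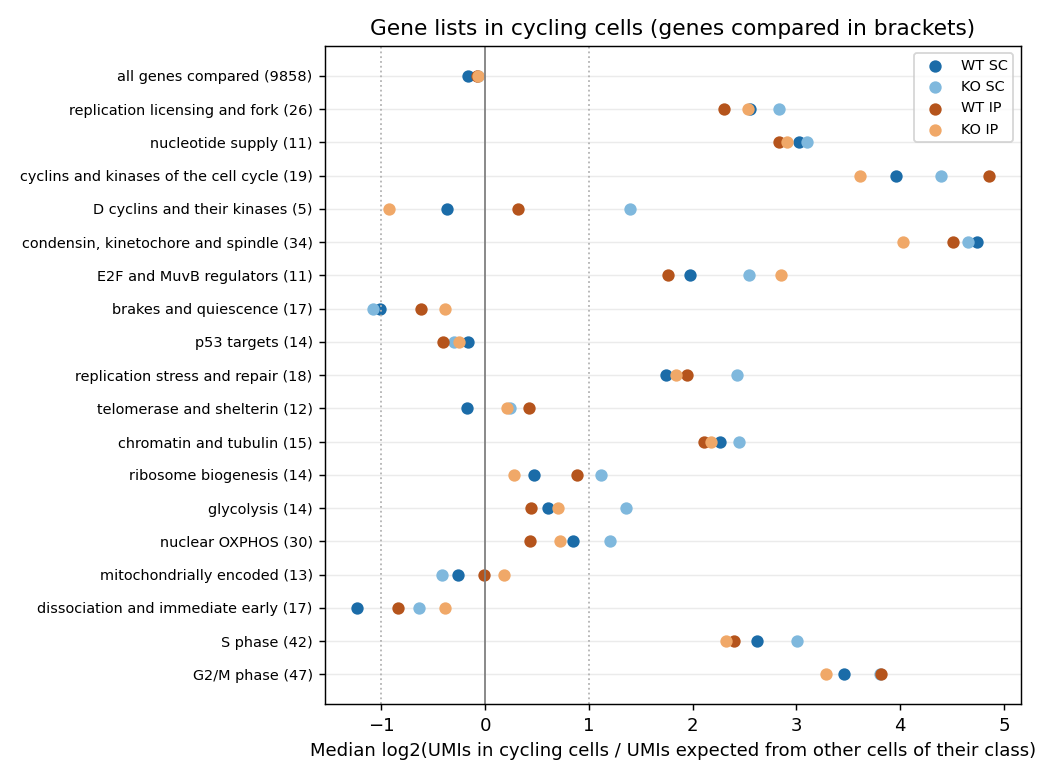
Median over a list's genes of log2 of UMIs in cycling barcodes over UMIs expected from other barcodes of their class and library (x axis), for each list (y axis, genes compared in brackets) and library (colours); dotted lines mark 2-fold. Replication, nucleotide, cyclin and kinetochore lists lie beyond 2-fold in all 4 libraries, D cyclins on both sides of 0, and brakes and immediate early genes below 0.

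Outside the lists, the 10 genes called higher whose smallest ratio over the libraries was largest were Hist1h1b, Hist1h3c, Hist1h2ae, Cdkn3, Shcbp1, Cep55, Asf1b, Kif14, Kif4 and Ska1. All 10 were also called with the 75 cells. Hist1h1b, a linker histone made in S phase, had 461, 339, 328 and 196 UMIs where 2.14, 1.42, 3.50 and 0.243 were expected. Cep55, of the last step of cell separation, had 23, 29, 42 and 14 UMIs, and Asf1b, a histone chaperone, 61, 51, 62 and 20. These genes serve S phase and mitosis as the lists do.

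The 10 genes called lower by the same ranking were Hp, Gm50218, Frmd5, Cd93, Thbd, Ace, Fstl4, Ifi213, Dapl1 and Cnr2. All rested on few counts. Hp had 0, 0, 0 and 1 UMIs where 3.53, 9.99, 69.2 and 10.4 were expected, and it was not called with the 75 cells, nor was Thbd. Dapl1 had 20, 0, 1 and 0 UMIs where 99.9, 48.3, 11.5 and 1.65 were expected. The other 8 remained called.

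KO was then set against WT within the cycling barcodes of a depot. In SC the S genes had 3860 CPM for KO against 3023 for WT, a log2 ratio of 0.35 (0.26 to 0.44), and the G2/M genes 8109 and 7122 CPM, a ratio of 0.19 (0.13 to 0.25). In IP the S genes had 3468 CPM in KO and 2355 in WT (0.56, 0.44 to 0.67) and the G2/M genes 8890 and 5944 (0.58, 0.51 to 0.65). The intervals count UMIs and not cells, so they are far too narrow for 21 against 23 and 6 against 40 barcodes. Without the deepest cell of each library the G2/M ratio was 0.02 in SC and 0.05 in IP.

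In T-like cells alone 2 of the 4 ratios changed sign. G2/M genes had 8553 CPM for KO SC against 9179 for WT SC (-0.10, -0.17 to -0.03), and 11384 for KO IP against 9836 for WT IP (0.21, 0.12 to 0.30). S genes had a log2 ratio of 0.35 in SC and -0.04 in IP (-0.17 to 0.10), the latter holding 0. Over all 5332 genes compared in T-like cells of SC 5.29% were at least 2-fold higher in KO and 6.1% lower, and over 3753 in IP 10.2% and 11%. The mix of classes and the deepest cells moved with the values over all cycling barcodes, and their part in them was not tested. Over all cycling barcodes 448 of 6371 genes were at least 2-fold higher in KO SC than in WT SC (7.03%) and 437 lower (6.86%). In IP 1042 of 7350 were higher (14.2%) and 905 lower (12.3%). Of the lists, S phase had 3 of 40 genes past 2-fold upward in SC and 10 of 37 in IP, and condensin, kinetochore and spindle genes 1 of 34 and 8 of 34.

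Single genes had wide intervals. Ccnb1, the mitotic cyclin, was at 125 CPM in KO SC against 57.6 in WT SC (1.12, 0.52 to 1.74) but at 81.6 against 80.5 in T-like cells alone (0.02, -0.73 to 0.76). Cdkn1a was at 58.8 against 51.5 CPM in SC (0.19, -0.57 to 0.94) and at 123 against 141 in IP (-0.19, -0.82 to 0.39). Both intervals hold 0. In T-like cells alone Cdkn1a had 4 UMIs in KO SC against 23 for WT SC (-2.15, -4.14 to -0.60), and 22 in KO IP against 10 for WT IP (1.52, 0.39 to 2.77). These intervals count UMIs pooled over 13 against 13 cells in SC and 5 against 5 in IP. A single T-like cell held 107406 of 181392 UMIs in KO IP, and another held 178435 of 237197 in WT IP.

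GFP transcripts, the mark of recombinase activity, were found in cycling and other cells. Nearly all counts lay in 1 of the GFP features, with 10979, 9919, 9376 and 2375 UMIs in the order WT SC, KO SC, WT IP and KO IP. A second GFP feature had 10, 7, 6 and 3 UMIs in the same order and was not used. At least 1 UMI of the main feature was held by 15 of 23 cycling barcodes of WT SC (65.2%, 42.7 to 83.6), 9 of 21 of KO SC (42.9%, 21.8 to 66.0), 21 of 40 of WT IP (52.5%, 36.1 to 68.5) and 2 of 6 of KO IP (33.3%, 4.33 to 77.7). In other kept barcodes the shares were 54.5%, 35.6%, 48.2% and 25.4%. The intervals of the cycling barcodes hold these values. No class known to lack GFP was at hand to give a background share. Transcripts of tdTomato were few, with 100, 147, 110 and 60 UMIs in the order WT SC, KO SC, WT IP and KO IP. Cycling barcodes held 6, 2, 13 and 0 of them, so a barcode without GFP is not read as one with an uncut reporter. At least 10 GFP UMIs were held by 9 of 23, 5 of 21, 12 of 40 and 2 of 6 cycling barcodes, and by 42.9%, 23.9%, 32.0% and 13.2% of the others. Summed levels differed within classes, with intervals that count UMIs and not cells. Cycling T-like cells of KO SC had 163 CPM against 742 in other T-like cells (-2.18, -2.58 to -1.81). A GFP UMI was seen in 5 of 13 of them against 474 of 1176 others, and the deepest of the 13 held 0. The log2 ratios in T-like cells were 0.06 (-0.06 to 0.17) for WT SC, -0.24 (-0.40 to -0.08) for WT IP and -0.65 (-0.98 to -0.34) for KO IP. Cycling macrophage-like cells of WT IP had 976 CPM against 1563 (-0.68, -0.88 to -0.48). Here 6 of 10 cells held a GFP UMI against 51 of 84 others, and 1 cell held 159 of the 224 UMIs. At 5000 UMIs per cell the shares in the 75 cells were 61.1%, 33.3%, 44.1% and 33.3%, against 55.4%, 37.1%, 43.3% and 19.9% in the others, with shallower cells left out.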

How the data were processed

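Single-cell RNA sequencing of 4 libraries was analysed from the matrices of UMI counts that the authors deposited, 1 per library. Per the file headers these came from Cell Ranger 7.0.0, and the submitters' processing notes name Cell Ranger, STAR 2.6 and mm10. Each library held 32290 features and 700 to 2115 barcodes, with 10015201 to 15533961 UMIs. The cycling cells, gene lists and markers were chosen with earlier results of these data known.

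Kept barcodes held 200 genes or more and no more than 25% mt- UMIs. Cells were classed by the marker list of which they showed the largest share, with a minimum of 2 markers. Class-matched ratios used genes with at least 20 UMIs, seen or expected, in the cycling barcodes of the 4 libraries together. They added 0.5 UMI to both sides and called a gene at 2-fold the same way in 4 libraries. This step was tested on simulated data with known changes. Scrublet (in scanpy 1.11.5) called 23 of 4136 kept barcodes (0.556%), which stayed in. Depth was equalised by drawing 5000 or 3000 UMIs per cell. Intervals were exact (Clopper-Pearson for shares, Poisson for counts, conditional binomial for ratios) at 95%, and cover counting error only. Named genes were the rule genes, Tert, members of the fixed lists and T subset genes, and the 10 highest and 10 lowest called genes outside the lists and class markers, without mt-, ribosomal protein, immunoglobulin, haemoglobin, sex and reporter genes. Promoters and gene positions were read from RefSeq GRCm38.p6 and a GRCm38 annotation. Python 3.11.15, numpy 2.4.6, scipy 1.17.1 and pandas 2.3.3 were used. Alternatives changed the rule, cell filters, doublets, depth, class rule, reference cells, scaling and low-count filter.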

Additional observations from a re-analysis of the deposited data

Results flagged for a closer look

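In 4 gene lists KO stood on opposite sides of WT in SC and IP with both counting intervals leaving out 0, as log2 ratios of summed CPM over all cycling barcodes, and the difference between the depots was not tested. Brakes and quiescence genes were at -0.25 in SC and 0.34 in IP. Targets of p53 were at -0.36 and 0.31, ribosome biogenesis genes at 0.56 and -0.16, and mitochondrially encoded genes at -0.20 and 0.12. A further 3 lists had opposite signs with an IP interval that holds 0: telomerase and shelterin at 0.37 and -0.14 (-0.44 to 0.14), D cyclins and their kinases at 0.25 and -0.03 (-0.31 to 0.24), and dissociation and immediate early genes at 0.30 and -0.03 (-0.11 to 0.05). KO IP held 6 cycling barcodes, of which 1 cell gave 45.7% of the UMIs. In T-like cells alone, in the order SC and IP, brakes and quiescence genes were at -0.40 and 0.68 and ribosome biogenesis genes at 0.44 and -1.49. Mitochondrially encoded genes were there at -0.39 and 0.02 (-0.04 to 0.07), the latter holding 0, and p53 targets at -0.55 in SC.

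Among barcodes with under 200 genes, which entered no comparison, 46 held at least 3 UMIs of the rule genes. All 46 had over 50% of their UMIs from haemoglobin genes.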

How the results depend on the processing

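Of 148 alternatives, 105 left the value within its limits, 41 moved it and 2 reversed it. The sign of the share ratios was kept in 31 of 32. No paired analysis was possible because the labels give no replicate numbers and each group is 1 library. With a rule sum of at least 2 the cycling share was 3.91%, 1.93%, 8.0% and 3.45% in the order WT SC, KO SC, WT IP and KO IP. Drawing 3000 UMIs per cell gave 1.24%, 0.396% and 3.09% in WT SC, KO SC and WT IP, a T-like share of 51.2% and 92.7% of cells with more G2/M than S UMIs, and drawing 5000 gave 3.69% in WT IP. Genes higher numbered 107 at 5000 UMIs, 46 at 3000 and 141 with equal weight per cell. Genes lower numbered 23, 10 and 33 under those settings, 62 with a rule sum of 2, 211 with 5, 677 against all other cells, 79 with at least 50 UMIs and 210 with no filter. Leaving out 1 library gave 371 to 493 genes higher and 189 to 364 lower, with 220 lower without KO SC, 364 without WT IP and 300 without KO IP. At 10 UMIs in place of 20 the genes past 2-fold between KO and WT numbered 1590 in SC (885 before) and 2948 in IP (1947 before).

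With median-of-ratios scaling the S ratio was 0.23 in SC and 0.39 in IP, and the G2/M ratio 0.065 and 0.41. Equal weight per cell gave a G2/M ratio of 0.055 in SC and 0.23 in IP. The following were chosen after seeing the data. Without haemoglobin-rich barcodes and the shared KO SC barcodes the S ratio was 0.24 in SC and 0.39 in IP and the G2/M ratio 0.068 and 0.41. Without the deepest cell of each library the S ratio was 0.21 and 0.27 and the G2/M ratio 0.019 and 0.055. In T-like cells alone G2/M reversed to -0.10 in SC and was 0.21 in IP, and S reversed to -0.038 in IP. The cause was not tested. With 6 cycling barcodes in KO IP, depth and cell number limit every value of that library.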
